A study of Mus musculus with 9 samples.

Results

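Genes that mark the CD4 and CD8 double-positive stage of T cell development were followed in invariant natural killer T (iNKT) cells with and without the histone demethylase Utx. The set holds 10 genes, Rag1, Rag2, Ptcra, Dntt, Arpp21, Mns1, Aqp11, Cd8a, Cd8b1 and Cd4. Every probe set annotated to 1 of these genes and to no other was taken, which gave 23 of the 34945 probe sets with a single gene on the array (45101 in all). Of the 10 genes, 5 had 1 probe set each, Arpp21 and Cd8a had 5, Dntt and Aqp11 had 3, and Cd4 had 2. The samples were RNA of thymic iNKT cells from mice of 8 to 12 weeks, matched for age and sex, of which 5 were Utx wildtype and 4 Utx knock out, each given as a biological replicate. All 9 arrays carry cells sorted as iNKT cells, and no other allele or treatment is named. The Cre driver or other means of deletion, the strain and the sort gate are not given in the sources used here. WT1 to WT5 and KO1 to KO4 denote the arrays by genotype and replicate number. Batch 1 held WT1 and KO1, batch 2 held WT2, KO2, KO3 and KO4, and batch 3 held WT3, WT4 and WT5.

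Thymocytes pass from a double-negative stage, without CD4 and CD8, through a double-positive stage with both coreceptors before they mature. At the double-negative stage the pre-T cell receptor alpha chain, the product of Ptcra, pairs with a rearranged beta chain. RAG1 and RAG2 then cut the alpha locus in double-positive cells, and terminal transferase, the product of Dntt, adds bases at the joints. iNKT cells arise from double-positive thymocytes, are selected on lipids presented by CD1d, and in mice mature as CD4-positive or double-negative cells with little CD8. The question addressed is whether RNA of this earlier stage differed between Utx knockout and wildtype iNKT cells.

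The members differ in the DNA before their start sites, and 4 of these sequences are shown because Mns1 and Ptcra had 2 of the 3 largest differences below and Rag1 and Rag2 share a locus. They run 5′ to 3′ on the strand of the gene, end at the base before the annotated start, and come from RefSeq (GRCm38.p6). Capitals mark E boxes, the letters CANNTG on either strand, to which E proteins such as the products of Tcf3 and Tcf12 bind. Rag1 and Rag2 lie next to each other on chromosome 2 and are transcribed towards each other.
Rag1, chr2:101649533-101649782, minus strand: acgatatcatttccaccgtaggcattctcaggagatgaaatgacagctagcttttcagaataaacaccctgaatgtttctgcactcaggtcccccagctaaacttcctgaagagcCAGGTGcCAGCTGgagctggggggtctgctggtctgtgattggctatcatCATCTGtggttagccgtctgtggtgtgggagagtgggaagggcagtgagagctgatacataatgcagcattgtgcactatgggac
Rag2, chr2:101624462-101624711, plus strand: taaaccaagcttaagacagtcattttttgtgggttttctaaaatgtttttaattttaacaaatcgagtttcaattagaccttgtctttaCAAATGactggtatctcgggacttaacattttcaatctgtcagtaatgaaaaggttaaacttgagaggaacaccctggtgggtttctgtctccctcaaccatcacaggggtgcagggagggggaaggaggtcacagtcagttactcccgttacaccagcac
Ptcra, chr17:46763713-46763962, minus strand: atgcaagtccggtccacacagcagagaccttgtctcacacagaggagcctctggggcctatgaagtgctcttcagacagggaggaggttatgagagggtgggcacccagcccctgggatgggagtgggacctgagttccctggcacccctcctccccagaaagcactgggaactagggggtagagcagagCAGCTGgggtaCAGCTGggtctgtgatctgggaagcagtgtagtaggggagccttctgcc
Mns1, chr9:72438279-72438528, plus strand: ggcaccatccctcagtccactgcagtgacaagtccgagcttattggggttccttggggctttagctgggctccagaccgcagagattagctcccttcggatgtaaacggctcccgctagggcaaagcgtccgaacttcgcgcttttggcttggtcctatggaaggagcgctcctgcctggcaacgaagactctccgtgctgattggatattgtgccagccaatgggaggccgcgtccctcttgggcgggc
The window of 250 bases held 3 E boxes at Rag1, 1 at Rag2 and 2 at Ptcra. That of Mns1 held 0. RefSeq promoters were matched for 8 of the 10 members (16 promoters, 9 of them of Arpp21), and 7 of these 8 genes had an E box in at least 1 promoter. By promoter this was 15 of 16, beside 66.2% of all 32851 promoters of that length. Some of the 9 Arpp21 windows overlap, so the same site can count more than once by promoter. The Ikaros core GGGAA occurred in 7 of the 16 promoters (56.2% of all promoters), 1 for each of 7 genes. The Runx letters TGTGGT were in 4, of Rag1 and Arpp21 (14.0%), and the Tcf1 and Lef1 letters CTTTGA in 3, all of Arpp21 (13.8%). Each motif was searched on both strands, motifs may overlap, and a match describes the letters only.

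Double-positive stage genes were higher in Utx knockout iNKT cells. Of the 10 members, 7 rose by limma (Rag2, Ptcra, Arpp21, Mns1, Aqp11, Cd8a and Cd8b1; Benjamini-Hochberg adjusted p under 0.05 over 14524 genes), by 1.97-fold for Cd8a to 7.28-fold for Mns1. Rag1, Dntt and Cd4 had positive differences that did not pass. None of the 10 fell, and all 10 had an unadjusted p under 0.05. Among all genes tested, 7.88% were called higher and 3.37% lower, and 20% were higher and 10.7% lower at an unadjusted p under 0.05. The members, and the gene lists below, were chosen with earlier results of these data known. Their comparison with all genes is therefore descriptive and gives no independent support. The median difference was 1.53 (log2) over the members and 0.11 over all genes, with 2.31 and -0.01 within batch 1, and 1.0 and 0.19 within batch 2. In RNA of a bulk sort, a larger share of cells that express a gene and more of its RNA per cell cannot be told apart. The labels call the arrays biological replicates, and their small number limits the precision.

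Levels below are log2 values as deposited, and differences are knockout minus wildtype, fitted with batch as a factor. The probe set of highest mean stands for each gene: 1450680_at for Rag1, 1418065_at for Rag2, 1421760_at for Ptcra, 1420166_at for Dntt, 1419028_at for Arpp21, 1419402_at for Mns1, 1429254_at for Aqp11, 1425335_at for Cd8a, 1426170_a_at for Cd8b1 and 1419696_at for Cd4. On the chosen probe set of every member, each knockout array lay above each wildtype array. Such a separation was seen for 22.2% of all genes tested.

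**Figure D1:**
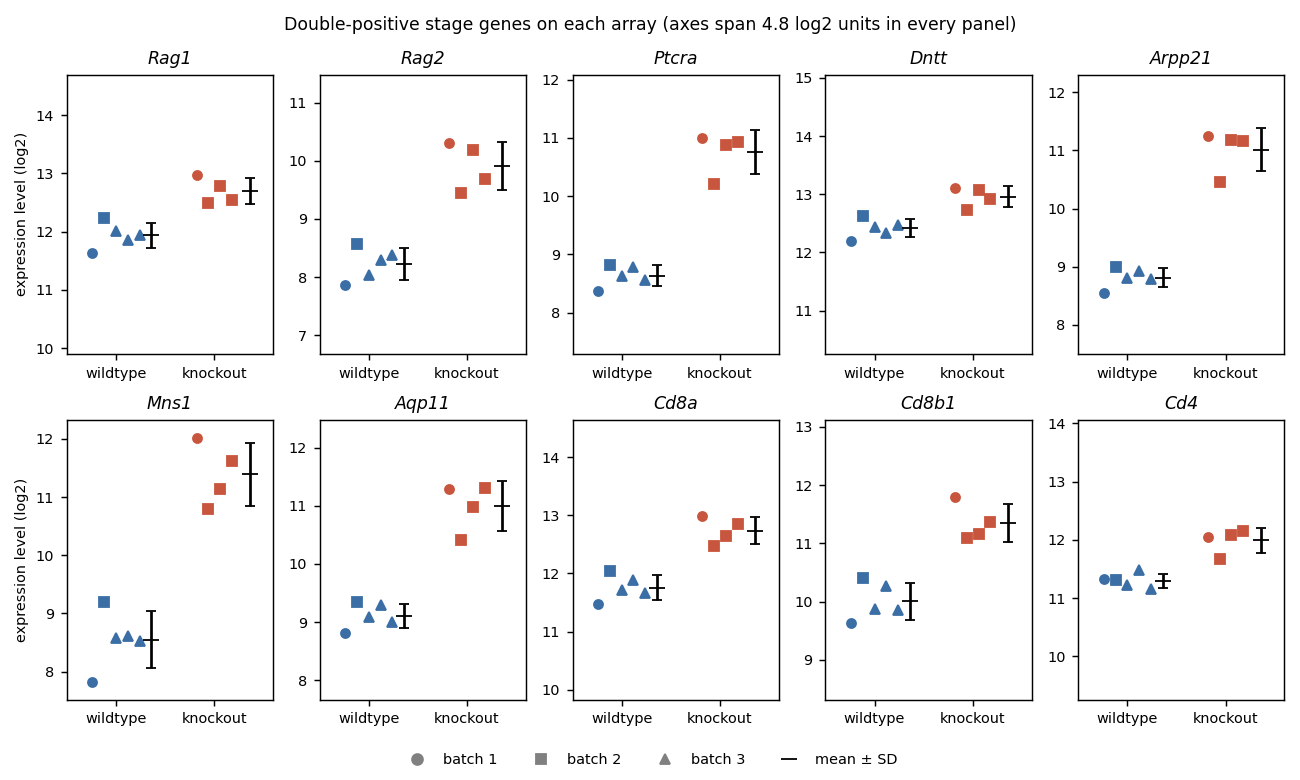
Expression level (log2) of the 10 members on each array, with wildtype arrays in blue, knockout arrays in red, the batch as the marker shape, and the mean ± SD in black (n = 5 wildtype, n = 4 knockout). Each knockout array lies above all wildtype arrays in every panel, and the gap is widest for Mns1.

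Ptcra had the largest difference of the 4 members that act in receptor assembly. WT1 to WT5 read 8.37, 8.81, 8.62, 8.79 and 8.56, and KO1 to KO4 read 11.00, 10.20, 10.88 and 10.94. KO2 was the lowest knockout array, still 1.39 above the highest wildtype array. The fitted difference was 2.17 (SE 0.26, 4.50-fold, adjusted p = 0.0041 by limma; batch 1 alone gave 2.63 and batch 2 alone 1.86). Rag2, the regulatory partner of the recombinase, read 7.86, 8.57, 8.04, 8.29 and 8.38 on WT1 to WT5 and 10.30, 9.44, 10.19 and 9.68 on KO1 to KO4. The lowest knockout level, KO2, lay above the highest wildtype level, WT2. Rag2 rose by 1.70 (SE 0.31, 3.25-fold, adjusted p = 0.0136 by limma). Batch 1 alone gave 2.45 and batch 2 alone 1.20.

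Rag1, the catalytic subunit encoded beside Rag2, had a smaller difference. It read 11.63, 12.24, 12.01, 11.86 and 11.94 on WT1 to WT5, and 12.97, 12.49, 12.78 and 12.54 on KO1 to KO4. WT2 and KO2, both of batch 2, came within 0.25 of each other. The difference was 0.75 (SE 0.22, 1.69-fold, adjusted p = 0.0641 by limma; 1.33 in batch 1, 0.37 in batch 2). Without WT2, which leaves KO1 against WT1 alone, it was 1.33. Over the fits without 1 array it ranged from 0.37 to 1.33. Dntt had the smallest difference of the 10. Its levels were 12.20, 12.62, 12.44, 12.34 and 12.47 in wildtype cells and 13.11, 12.73, 13.08 and 12.91 in knockout cells. The highest wildtype array, WT2, and the lowest knockout array, KO2, were nearly level. The difference was 0.54 (SE 0.19, adjusted p = 0.0993 by limma; 0.92 in batch 1, 0.29 in batch 2). The other 2 Dntt probe sets gave 0.63 and 0.98, and neither passed over all probe sets (adjusted p = 0.0754 and 0.0751).

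Mns1, Arpp21 and Aqp11 do not act in receptor assembly. Mns1, which encodes a coiled-coil protein of motile cilia and sperm flagella, rose most among the members. Wildtype arrays read 7.82, 9.20, 8.57, 8.62 and 8.53, and knockout arrays 12.01, 10.79, 11.14 and 11.63. WT1 and KO1, the pair of batch 1, are the lowest and the highest array of all 9. The difference was 2.86 (SE 0.44, 7.28-fold, adjusted p = 0.0079 by limma; batch 1 alone gave 4.19 and batch 2 alone 1.98). Arpp21, a cyclic AMP-regulated phosphoprotein with a thymocyte form, read 8.56, 9.0, 8.80, 8.92 and 8.79 on the wildtype arrays and 11.25, 10.46, 11.18 and 11.16 on the knockout arrays. The wildtype arrays lie within 0.44 of each other, and KO2 is the lone knockout array below 11. Arpp21 rose by 2.24 (SE 0.26, 4.72-fold, adjusted p = 0.0038 by limma; 2.69 in batch 1, 1.94 in batch 2). For Aqp11, an intracellular aquaporin, levels were 8.82, 9.34, 9.08, 9.29 and 9.0 against 11.28, 10.40, 10.98 and 11.31. The groups were at least 1.07 apart. It rose by 1.92 (SE 0.29, 3.79-fold, adjusted p = 0.0079 by limma; 2.46 in batch 1, 1.56 in batch 2).

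The 3 coreceptor genes had differences of 0.69 to 1.35. Cd8b1, the CD8 beta chain, is expressed on conventional T cells as a dimer with the alpha chain, and the neighbouring Cd8a encodes the alpha chain. Cd8b1 read 9.63, 10.40, 9.86, 10.26 and 9.85 in wildtype and 11.80, 11.09, 11.15 and 11.37 in knockout cells. It rose by 1.35 (SE 0.29, 2.55-fold, adjusted p = 0.0252 by limma; 2.17 in batch 1, 0.80 in batch 2). WT2 again lay nearest to the knockout arrays, and the groups did not overlap. Cd8a levels were 11.47, 12.04, 11.72, 11.88 and 11.67 against 12.99, 12.47, 12.64 and 12.85, with a gap of 0.43 between the groups. Cd8a rose by 0.98 (SE 0.22, 1.97-fold, adjusted p = 0.0300 by limma; 1.51 in batch 1, 0.62 in batch 2). The call of Cd8b1 ended without WT1 or KO1 (0.80, adjusted p = 0.0659), and that of Cd8a ended without any 1 array other than WT2 and KO2 (0.62 to 1.01, adjusted p 0.0524 to 0.10). Both calls also ended with array weights (1.30 and 0.95, adjusted p = 0.0652 and 0.0767). Without WT2, which leaves KO1 against WT1 alone, the differences were 2.17 for Cd8b1 and 1.51 for Cd8a. The mean of the 5 Cd8a probe sets gave 1.47 over all arrays. Cd4, the coreceptor that many iNKT cells keep, read 11.32, 11.30, 11.22, 11.48 and 11.15 in wildtype and 12.04, 11.68, 12.09 and 12.16 in knockout cells. It had the same size of difference in both batches, 0.72 in batch 1 and 0.67 in batch 2. Its fitted difference of 0.69 (SE 0.19, 1.62-fold, adjusted p = 0.0528 by limma) passed without KO2 (0.78, adjusted p = 0.0251). It passed in no other fit without 1 array, where it was as low as 0.64.

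All probe sets of the members were then compared, since a gene's probe sets can read different parts of its transcripts. Differences were positive on all 23 probe sets, beside 8606 of the 14524 genes tested. Of the 23, 13 passed limma over the 34945 probe sets with 1 gene, where 4.7% were called higher and 2.66% lower. Every knockout array lay above every wildtype array on 21 of the 23 (17.3% of all such probe sets). The number that passed was 8 without WT1 or KO1. Of the 5 Cd8a probe sets 4 rose, by 0.98 to 1.86. The fifth, 1451673_at, had 1.24 (SE 0.37, adjusted p = 0.0753; 2.34 in batch 1, 0.51 in batch 2). All 3 Aqp11 probe sets rose, by 1.92, 1.91 and 0.97. The last, 1447606_x_at, read 3.58 to 3.88 on wildtype arrays, under the level of 4.54 used as a filter, so its size carries that limit. The ending x_at marks probe sets in which some probes may match other transcripts, and 2 of the 4 Cd8a probe sets that rose carry it.

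Arpp21 probe sets disagreed most. Besides the one used above, 1442121_at rose by 1.54 (SE 0.37, adjusted p = 0.0435), whereas 1440429_at had 2.13 (SE 0.57, adjusted p = 0.0563) and 1424248_at 1.42 (SE 0.41, adjusted p = 0.0700). On 1451280_at the wildtype arrays read 7.82, 9.01, 8.53, 7.87 and 8.62 and the knockout arrays 9.79, 9.05, 9.06 and 8.83. The groups overlapped there, and the difference was 0.77 (SE 0.40, adjusted p = 0.249; 1.97 in batch 1, -0.03 in batch 2). The other Cd4 probe set, 1427779_a_at, overlapped too: it read 7.62, 7.95, 7.62, 7.90 and 7.62 against 8.31, 7.88, 7.94 and 7.63. Its difference was 0.19 (SE 0.22, adjusted p = 0.598; 95% interval -0.30 to 0.69).

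**Figure D2:**
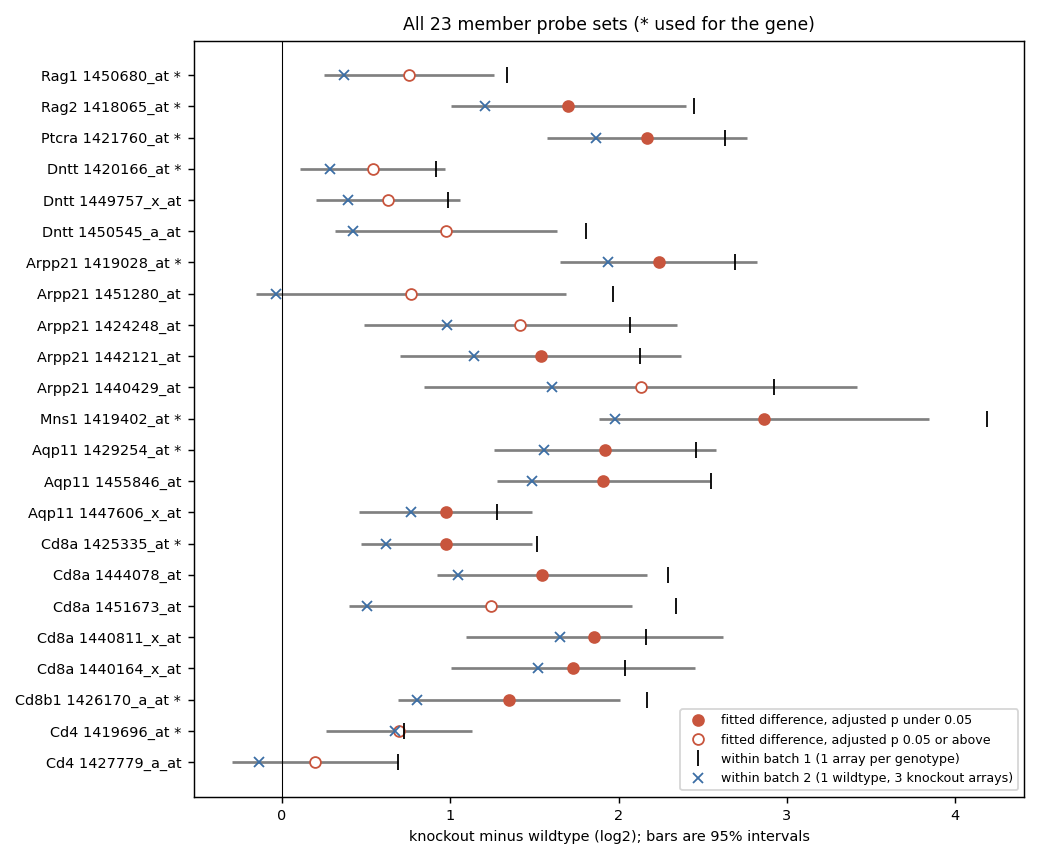
Knockout minus wildtype difference (log2) of the 23 member probe sets, with 95% intervals from limma as bars, filled circles where the adjusted p was under 0.05, and the differences within batch 1 (black ticks) and batch 2 (blue crosses). All 23 fitted differences are positive, and on every probe set the batch 1 value exceeds the batch 2 value.

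The arrays of a genotype deviated in the same way over most members. KO2 was the lowest knockout array on all 10 chosen probe sets and on 20 of all 23. The median member lay 1.15 above the wildtype mean on KO2, beside 1.94 on KO1, 1.51 on KO3 and 1.41 on KO4. Without KO2, 8 members passed, the 7 above and Cd4. Among wildtype arrays WT2 was the highest for 9 of the 10 members (median deviation 0.26) and WT1 the lowest for 9 (-0.28). Cd4 followed neither pattern, with WT5 lowest and WT4 highest. Over all genes tested the median deviation was 0.05 on KO1 and on KO2, 0.14 on KO3 and 0.16 on KO4. It was 0.06 on WT1 and -0.07 on WT2. The share of all genes with the same order of arrays was not counted.

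**Figure D3:**
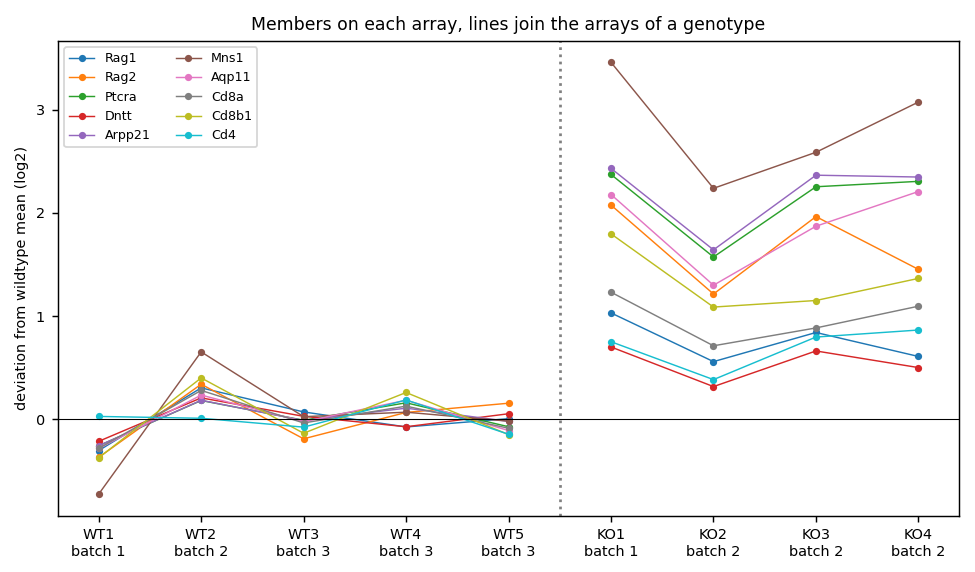
Deviation of each member from its wildtype mean (log2) on the 9 arrays, with lines joining the arrays of a genotype. All 10 members have their lowest knockout value on KO2, from 0.32 for Dntt to 2.24 for Mns1.

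Batch 1 gave larger differences than batch 2 for all 10 members. Over all genes tested the median difference was -0.01 in batch 1 and 0.19 in batch 2. How many of those genes had the larger difference in batch 1 was not counted. The change in difference from batch 1 to batch 2 was -2.21 for Mns1 (SE 0.48, adjusted p = 0.172 by limma), -1.37 for Cd8b1 (SE 0.38, adjusted p = 0.242) and -0.05 for Cd4 (SE 0.41, adjusted p = 0.963). None of the 10 passed the interaction test, and 5 had an unadjusted p under 0.05. Over all 14524 genes 3 passed (0.0207%), and 13.3% had an unadjusted p under 0.05. Batch 1 rests on 1 array per genotype. Over all genes the fitted batch terms were far smaller than their errors, with a median size of 0.04 against a median SE of 0.22 for batch 2 minus batch 1, and 0 genes had an unadjusted p under 0.05 for it. Deviations from the genotype mean in WT1 and in KO1 correlated at r = -0.92 across genes, which are not independent replicates and share these arrays. For the members this appears as a low WT1 beside a high KO1. No source used here says whether the deposited values were adjusted for batch, and the part of such a step in the differences was not tested.

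Other genes of the same stage were counted from a list. Among 17 genes known to be high in double-positive thymocytes, 8 were called higher and 1 lower, with a median of 0.70 (1.0 in batch 1 and 0.50 in batch 2). At an unadjusted p under 0.05 there were 11 higher and 1 lower, beside 20% and 10.7% of all genes. Cd24a, the heat-stable antigen lost as thymocytes mature, rose from 11.46 ± 0.25 (SD, n = 5) to 12.80 ± 0.26 (n = 4), 2.52-fold (adjusted p = 0.0138 by limma). Bcl2l1, whose product BCL-XL keeps double-positive cells alive, rose by 1.13 (SE 0.22), and Endou, a gene of a secreted endoribonuclease, by 1.53 (SE 0.32; adjusted p = 0.0179 and 0.0222 by limma). Sh3bgrl2, a small thioredoxin-like protein gene, fell, by 1.04 (SE 0.18, adjusted p = 0.0110). The calls of Bcl2l1 and Endou ended without WT1 or KO1 (0.90 and 0.96, adjusted p = 0.0647 and 0.0620), and that of Sh3bgrl2 without WT2 (adjusted p = 0.0923). With the mean of all probe sets of a gene, Bcl2l1 was 0.72 (adjusted p = 0.124) and Sh3bgrl2 -0.79 (adjusted p = 0.0503). With array weights the calls of Endou and Sh3bgrl2 ended (adjusted p = 0.0553 and 0.0633). The count of 8 fell to 1 without WT1 or KO1, to 5 without WT2, WT3 or WT4, to 4 without WT5 or KO4 and to 3 without KO3, and was 11 without KO2.

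Among the partners of RAG and terminal transferase in joining DNA ends, 2 of 11 genes tested rose and 0 fell by limma (5 and 0 at an unadjusted p under 0.05, beside 20% and 10.7% of all genes), with a median of 0.21. Lig4, the ligase that seals coding joints, rose from 8.26 ± 0.07 to 10.35 ± 0.54 (2.12, SE 0.32), and Xrcc6, which encodes Ku70, from 10.09 ± 0.14 to 11.51 ± 0.27 (1.44, SE 0.21; both adjusted p = 0.0073 by limma). Prkdc, the DNA-dependent protein kinase, had 0.93 (adjusted p = 0.0933), and ranged from 0.20 (without WT2) to 1.42 (without WT1 or KO1). Nhej1, a further joining factor, had 0.87 (adjusted p = 0.0957), and 1.01 (adjusted p = 0.0432) without KO2. It passed in no other fit without 1 array, where it was as low as 0.73.

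Transcription factors of the stage moved both ways. Of 18 tested 4 rose and 1 fell, with a median of 0.23. At an unadjusted p under 0.05 there were 6 higher and 2 lower, beside 20% and 10.7% of all genes. Runx1, which binds the Cd4 silencer in immature thymocytes, rose from 8.84 ± 0.07 to 9.93 ± 0.06 (1.12, SE 0.14, adjusted p = 0.0045 by limma). Runx3, which acts in mature CD8 T cells and natural killer cells, fell from 10.60 ± 0.25 to 9.33 ± 0.44 (-1.25, SE 0.31, adjusted p = 0.0385). KO2 read 9.95 for Runx1, as did KO1, and 9.94 for Runx3, the highest knockout value. Patz1, a zinc finger factor that acts on Cd8 enhancers, rose by 0.83 (SE 0.18) and Gfi1, a zinc finger repressor, by 1.23 (SE 0.27; adjusted p = 0.0259 and 0.0274 by limma). Tcf12, which encodes the E protein HEB, had 0.59 (adjusted p = 0.0578), and 0.66 without KO2 (adjusted p = 0.0327). Tcf12 passed in no other fit without 1 array, where it was as low as 0.50. The call of Runx3 ended without any 1 array other than WT2 and KO2 (adjusted p 0.0646 to 0.134), that of Patz1 without WT2, WT5 or KO3 (adjusted p 0.0526 to 0.267), and that of Gfi1 without WT1, KO1 or KO3 (adjusted p 0.0579 to 0.0927). All 3 of these calls ended with array weights (adjusted p 0.0654 to 0.0801), and Runx3 was -0.82 with the mean of its probe sets (adjusted p = 0.0422). The count of 4 fell to 2 without WT1, WT2, WT5 or KO1 and to 1 without KO3.

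Genes of the T cell receptor complex and its proximal signalling, which double-positive and iNKT cells share, gave a median of -0.04. None of 11 passed in either direction by limma, beside 7.88% called higher and 3.37% called lower over all genes. At an unadjusted p under 0.05 there were 0 higher and 1 lower, beside 20% and 10.7% of all genes. Lcp2, the adaptor SLP-76, had -0.48 (adjusted p = 0.0789), and passed after another quantile normalization (-0.59, adjusted p = 0.0437), with the mean of its probe sets (-0.53, 0.0396) and with an eBayes trend (0.0244), as well as in each fit without the fixed batch terms (1.3e-05 to 0.0333). In the fits without those terms 4290 to 10045 genes were called, beside 1634 as reported, so passing there sets Lcp2 little apart. After Lcp2 in this list came Cd3g -0.37 (adjusted p = 0.222), Cd5 0.31 (adjusted p = 0.351) and Fyn, a Src family kinase, -0.28 (adjusted p = 0.352). Of 13 double-negative stage genes, 2 rose and 2 fell, with a median of 0.13. At an unadjusted p under 0.05 there were 2 higher and 3 lower, beside 20% and 10.7% of all genes. Notch3 (1.38) and Gata2 (0.85) rose, while Hhex (-1.49) and Cd44 (-1.23), which mature iNKT cells also express, fell (adjusted p 0.0061 to 0.0419 by limma). The calls of Notch3 and Gata2 ended in 7 and 6 of the 9 fits that left out 1 array (adjusted p 0.0568 to 0.328), and that of Cd44 without WT2 (-1.25, adjusted p = 0.0901). That of Hhex remained in all 9. With the mean of its probe sets Gata2 was 0.36 (adjusted p = 0.242), its call also ended with array weights, an eBayes trend or every probe set tested (0.0506 to 0.168), and that of Notch3 ended with array weights or another quantile normalization (0.0522 to 0.103). The rises counted in this list were 1 or 0 without any 1 array other than KO2, and the falls were 1 without WT2.

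Markers of the labelled cell type and of other cells were read on the same arrays. Zbtb16, which encodes the iNKT factor PLZF, read 10.95 in wildtype and 10.72 in knockout cells (difference -0.22, adjusted p = 0.510 by limma), and Cd3e 12.87 and 12.85. Of 10 iNKT markers 7 fell and 0 rose (8 and 0 at an unadjusted p under 0.05, beside 10.7% and 20% of all genes), by up to 2.62 for Klrk1. The log2 of their summed level was 15.11 to 15.38 on wildtype and 14.22 to 14.59 on knockout arrays. Cycling cell markers were higher for 9 of 9, from 1.25 for Birc5 to 2.18 for Plk1, and their log2 summed level was 12.66 to 13.22 and 14.20 to 14.74. Double-positive thymocytes include dividing cells, and whether this bears on the cycling markers here was not tested.

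For macrophages and dendritic cells 4 of 9 markers rose and 0 fell, from -0.14 for Siglech to 4.05 for Csf1r, with log2 summed levels of 8.85 to 9.51 on wildtype and 10.55 to 11.23 on knockout arrays. At an unadjusted p under 0.05 there were 6 higher and 0 lower, beside 20% and 10.7% of all genes. Csf1r read 3.57 to 5.22 on wildtype arrays, around the filter level of 4.54, so its size carries that limit. Itgam, Cd14 and Xcr1 were under 4.54 on every array. Over all genes tested, 7.88% were called higher and 3.37% lower, to be set beside each marker count here. For B cells 2 of 6 rose and 0 fell, from -0.17 for Pax5 to 1.78 for Cd79a, with 9.45 to 10.06 and 10.31 to 11.39. Of these 6, 4 were higher and 0 lower at an unadjusted p under 0.05. With the mean of all its probe sets Csf1r was 2.12 (adjusted p = 0.00256). With array weights the call of Cd79a ended (adjusted p = 0.0723). Without WT2, which leaves KO1 against WT1 alone, the calls of Csf1r (3.18) and Cd79a (1.59) by limma ended. Thymic epithelial markers gave 1 of 7 higher, Cd83 (1.80, adjusted p = 0.0176; 1.86 and 0.111 without WT2; 1.95 and 0.0657 with array weights), which lymphocytes and dendritic cells also express, and 0 lower. Foxn1 differed by -0.17 (adjusted p = 0.608), Psmb11 was under 4.54 on every array, and the log2 summed levels were 10.68 to 11.34 and 11.41 to 12.02. Ctsl, at 10.61 in wildtype and 11.24 in knockout cells (adjusted p = 0.235 by limma), makes up most of these sums. Krt5, Krt8, Epcam and Aire were not called either. Of the 7 tested, 1 was higher and 0 lower at an unadjusted p under 0.05. Of 4 gamma delta T cell markers 2 fell, from -1.51 for Blk to 0.14 for Il17a, and 0 rose, with 12.06 to 12.70 and 11.13 to 11.61. Of these 4, 3 were lower and 0 higher at an unadjusted p under 0.05. The call of Blk ended without any 1 array other than WT2 and KO2 (adjusted p 0.0645 to 0.0829), and also with no filter, centring, every probe set tested or array weights (0.0505 to 0.108). The 3 red cell genes with a probe set of their own stayed under the filter on average (log2 summed level 5.38 to 5.73 and 5.48 to 5.80). The part of these markers in the higher levels of the double-positive stage genes was not tested.

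**Figure D4:**
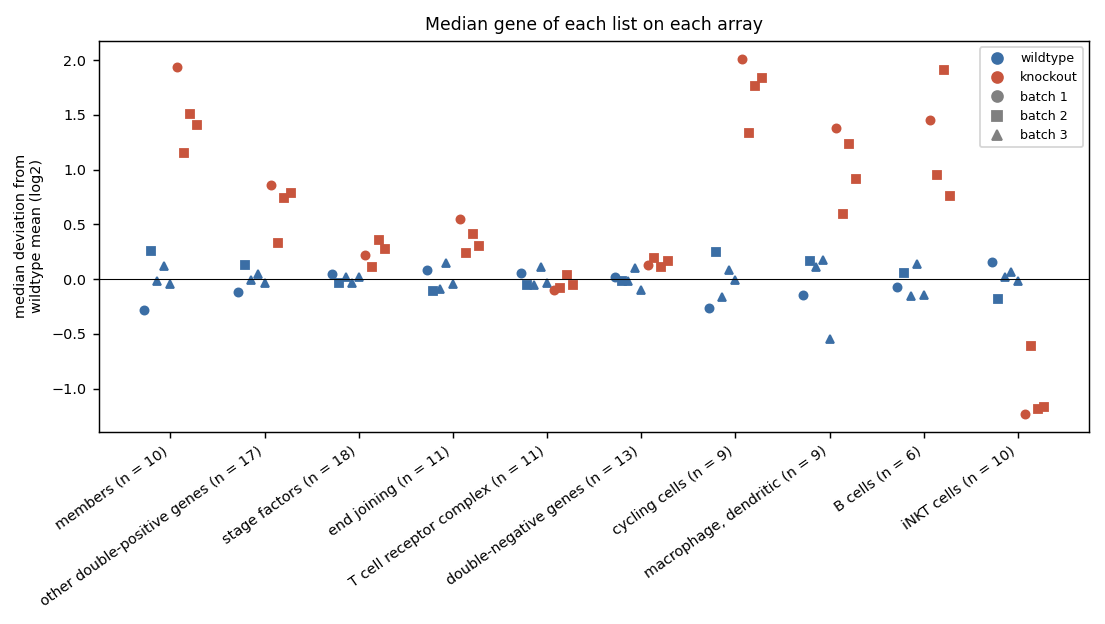
Median deviation from the wildtype mean (log2) over the genes of each list, 1 point per array, with genotype as colour and batch as marker shape. The members lie at 1.15 to 1.94 on knockout arrays, cycling cell markers are higher and iNKT markers lower on the same arrays, and genes of the T cell receptor complex stay near 0.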

How the data were processed

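Amplified RNA of iNKT cells sorted from the thymus (5 wildtype and 4 Utx knockout samples) was labelled with biotin and hybridised to expression arrays, per the labels. The deposited log2 levels, 1 per probe set and array, were made by the authors with RMA, as named without a version in the submitters' processing notes. The interquartile range per array was 3.45 to 3.84 (log2) on wildtype and 3.80 to 4.29 on knockout arrays, and the median 5.97 to 6.09. The values thus spread more widely on most knockout arrays. After another quantile normalization, which makes the spread equal, the same 7 members were called higher. Background cut-offs and a genome build are not given in the sources used here.

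Probe sets were named through the array annotation. Of those with 1 gene, 34741 matched RefSeq (GRCm38.p6) by Entrez identifier, and 0 symbols changed. Per gene, the probe set of highest mean was used, and 14524 of 18193 genes were tested, those with a mean over 4.54 (log2), which is the percentile 25 of the means of the whole array. All 10 members passed this filter. Differences, standard errors and p-values came from limma 3.58.1 (R 4.3.3; lmFit and eBayes, genotype and 3 batches as fixed factors, two-sided, Benjamini-Hochberg at 0.05). Batch 3 holds wildtype arrays alone, so it informs the residual variance and not the difference. Leaving out WT3, WT4 or WT5 therefore changes the error and not the difference. Without WT2 the difference is that of KO1 and WT1 alone. Without WT1 or KO1 it is that of batch 2, with 1 wildtype array. The fits that left out 1 array are thus not separate checks. A second fit covered all probe sets with 1 gene, without a filter. The fit was tested on simulated data with independent errors and added batch shifts. Those data did not carry the opposite deviations of WT1 and KO1, so the p-values were not checked under them. No arrays of a group were duplicates (smallest SD of a difference between 2 arrays 0.305).

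The members and lists were chosen with earlier results of these data known. Named besides the members are up to 4 genes of smallest p per related list, the extremes of each marker list, and the 5 genes nearest to Rag1 over the arrays. Tcf12, Zbtb16 and the flanking genes were added after their values were seen. List members with no probe set of their own (such as Tcf7 and Lck) were not analysed here. Alternatives covered the batch term, replicate block, filter, scaling, probe set choice, eBayes settings, weights, threshold and left-out arrays.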

Additional observations from a re-analysis of the deposited data

Results flagged for a closer look

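KO2 lay apart from the other 3 knockout arrays on 3 member probe sets, each time as the lowest, with a gap to the next array that took 0.851 (Ptcra), 0.894 (Arpp21) and 0.891 (Cd8a) of the range of the group. Ptcra read 10.20 on KO2, Arpp21 read 10.46 (1419028_at), and the Cd8a probe set 1440164_x_at read 8.09. Of 46 groups of arrays checked over the member probe sets these 3 stood out, and chance alone gives about 5%. Without KO2 the differences were 2.33 for Ptcra and 2.40 for Arpp21 (adjusted p = 9.5e-04 and 9.4e-04 by limma). The cause was not tested.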

How the results depend on the processing

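All 10 members kept a positive difference in all 25 alternatives, and none was called lower in any. The filter, the eBayes settings, the threshold, testing every probe set and leaving out batch 3 arrays cannot change a fitted difference. Its sign was thus fixed beforehand in those alternatives, and the fits without WT1 and without KO1 gave the same differences. How many of all genes kept their sign was not counted. The number called higher was 4 (Ptcra, Arpp21, Mns1 and Aqp11) without the batch 3 arrays or at an adjusted p of 0.01, 0 in batch 2 alone (6 at an unadjusted p under 0.05 by limma, lowest adjusted p = 0.0720), 5 with array weights (Cd8a and Cd8b1 lost), and 5 to 8 with 1 array left out. All 10 were called with no batch term, with batch as a random block, with an eBayes trend or at an adjusted p of 0.10. Member probe sets called higher were 22 with no batch term or a random block, 20 with an eBayes trend or at 0.10, 3 without batch 3 or at 0.01, 0 in batch 2 alone and 8 to 17 with 1 array left out. Genes called among all tested were 1634 as reported, 6342 with no batch term, 10045 with a random block, 2572 probe sets when every probe set was tested, 534 with array weights, 340 without batch 3, 0 in batch 2 alone, 336 at 0.01, 3033 at 0.10 and 860 to 2054 with 1 array left out. Of the calls 70.0% were higher, with 56.8% (without WT2) to 80.7% (at 0.01) over the alternatives and 58.3% after another quantile normalization. Of 30 other named genes called, 18 lost the call with array weights and 21 without batch 3.

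With the replicate block in place of batch, all 10 members, 21 member probe sets and 4290 genes were called. The numbers are not taken to pair the samples: deviations of same-numbered arrays correlated at -0.92, 0.09, 0.02 and 0.15. Among other genes, none of them called, the sign turned for Cd3e after another quantile normalization (0.0279), centring (0.0335) or array weights (0.0291). With 1 array left out it turned for Cd3e without WT2 (0.147), KO2 (0.0195) or KO4 (0.0412), and without WT2 for Cd5 (-0.0942), Pax5 (0.0761) and Il17a (-0.245). These fits ranged from -0.103 to 0.147 for Cd3e, -0.0942 to 0.580 for Cd5, -0.340 to 0.0761 for Pax5 and -0.245 to 0.405 for Il17a. The cause of these shifts was not tested.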

Other observations

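The nearest protein-coding genes on both sides of each member, up to 2 a side in the RefSeq order, were read after the members. Of 26 such genes tested 4 rose and 0 fell by limma, with a median difference of 0.37 (log2), beside 7.88% called higher over all genes. Traf6, a ubiquitin ligase gene beside Rag1, rose from 7.88 ± 0.24 (SD, n = 5) to 8.94 ± 0.24 (n = 4), a difference of 1.10 (SE 0.23, adjusted p = 0.0240 by limma). Rmnd5a, a gene of an E3 ligase complex beside Cd8a, rose by 0.90 (SE 0.19, adjusted p = 0.0230). Beside Cd4, the inhibitory receptor gene Lag3 rose by 0.93 (SE 0.19, adjusted p = 0.0205), and Ptms, which encodes parathymosin, by 1.90 (SE 0.32, adjusted p = 0.0105). With 1 array left out, Ptms kept its call in all 9 fits, while that of Traf6 ended without WT2 or KO3 (adjusted p 0.0537 to 0.401) and with the mean of its probe sets (0.56, adjusted p = 0.0630), that of Rmnd5a without WT1, KO1 or KO3 (0.0520 to 0.0806) and that of Lag3 without WT1, WT2 or KO1 (0.0578 to 0.113). The calls of Traf6, Rmnd5a and Lag3 also ended with array weights (0.0631 to 0.0843).

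Over the 9 arrays, the genes whose deviations from the wildtype mean lay nearest to those of Rag1 were Fabp5, a fatty acid binding protein, Ckap5, a microtubule polymerase, Rrm2, a ribonucleotide reductase subunit, Tspan13, a tetraspanin, and Stmn1, a microtubule destabiliser. Their root mean square distances were 0.085 to 0.104 (log2). Their knockout minus wildtype differences were 0.75 to 0.78, and their calls ended in 5 to 7 of the 9 fits that left out 1 array (adjusted p 0.0541 to 0.160 by limma) and, for all 5, with array weights (0.0931 to 0.115). With the mean of all probe sets Ckap5 was 0.31 (adjusted p = 0.243) and Rrm2 1.25. Among the members Dntt was nearest to Rag1 at 0.161, with 35 of 14514 other genes closer, followed by Cd8a at 0.201 and Cd4 at 0.232. Rag2, the genomic neighbour of Rag1, was at 0.634, with 9113 genes closer, and Mns1 was farthest at 1.42.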
